A study of Mus musculus with 60 samples.

Results

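The lithium response of the young mouse prefrontal cortex was measured in 4 arms that share no libraries: females and males labelled HT for Trip12, and females and males labelled WT. Each arm set 5 lithium libraries against 5 vehicle libraries, so that 40 of the 60 libraries of the series took part, 20 with lithium and 20 with vehicle. The arms were taken by their labels alone, and the measured quantity was the lithium minus vehicle difference of log2(normalized count + 1) in each arm and its mean over the arms. All mice were of the strain C57BL/6J, and each library came from cortex taken on postnatal day 25. The drug or its vehicle reached the pups through the milk of the dam from postnatal day 3 to 24, about 3 weeks. HT stands for heterozygous and WT for wild type, as the labels give them; the labels name neither the Trip12 allele nor the animals, dams or litters behind the libraries. Pups of one dam would share an exposure, so the p-values below measure the spread between these libraries. The remaining 20 libraries came from fluoxetine-treated mice of the same genotypes and sexes and served for a direct comparison between the drugs.

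Lithium is a mood stabiliser. It is known to inhibit glycogen synthase kinase 3, the kinase that marks beta-catenin for breakdown in the Wnt pathway, and inositol monophosphatase, the enzyme that returns free inositol to phosphoinositide signalling. The phosphatases inhibited by lithium need magnesium, and the cell can also take up inositol from outside through sodium-coupled carriers. Trip12, the gene by which the mice are grouped, encodes a ubiquitin ligase.

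Trip12 itself had 5489 to 6953 normalized counts (median 6053) in the 20 HT libraries and 5099 to 6126 (median 5719) in the 20 WT libraries. Its level was higher in HT by 0.10 on the log2 scale (permutation test, two-sided p = 0.00012, n = 20 each), and the labels do not name the allele, so this level does not check them; HT and WT below mean libraries so labelled. Reads recovered from the normalized counts came to 25.1 to 35.9 M per lithium or vehicle library. They were higher in lithium than in vehicle females without overlap, at 32.1 to 35.2 M reads in HT lithium females, against 26.6 to 31.0 M in HT vehicle females, and 33.9 to 35.9 M in WT lithium females, against 28.1 to 29.3 M in WT vehicle females (exact permutation test, n = 5 each, two-sided p = 0.0079 in both, the smallest that 5 against 5 allow; 0.053 adjusted over 20 such comparisons of library measures). In males the means were 29.8 M in HT lithium and 28.1 M in HT vehicle libraries (exact p = 0.29), and 28.4 M in WT lithium and 28.2 M in WT vehicle libraries (exact p = 0.93). Marker scores of neighbouring tissue differed between the treatments at an unadjusted exact p under 0.05 in 2 arms, and neither passed after adjustment. Summed striatal markers lay at 16666 to 21703 normalized counts in HT lithium males, against 16055 to 39076 in HT vehicle males, of which 4 of 5 libraries were high (marker scores, exact p = 0.048, adjusted 0.19). Summed olfactory bulb markers lay at 3978 to 8385 in WT lithium males, against 8707 to 15484 in WT vehicle males (marker scores, exact p = 0.016, adjusted 0.079). Summed markers of cortical projection neurons, which the tissue label calls for, lay between 71176 and 97040 in all 40 libraries.

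Averaged over the 4 arms, lithium was associated with a broad and shallow change. Of 17804 genes tested, 4021 passed an adjusted p of 0.05 (22.6%), 2028 higher (11.4%) and 1993 lower (11.2%) with lithium (limma-trend, Benjamini-Hochberg over all genes tested, as for all adjusted p-values below). The median absolute log2 difference of the called genes was 0.172; 276 of them differed by more than 0.5 and 20 by more than 1. The averaged difference had a median SE of 0.0523 and that of a single arm 0.105, all on the log2 scale. Single arms gave fewer calls: 219 in HT females (1.23%), 2348 in HT males (13.2%), 145 in WT females (0.814%) and 311 in WT males (1.75%). Of the 4021 genes, 2018 were called in the average and in no single arm. The counts in HT females, WT females and WT males moved by over 1.5 times with 1 library. Leaving out 1 library of the arm gave 31 calls in HT females without lithium replicate 2 and 456 without lithium replicate 5, 11 in WT females without vehicle replicate 1 and 322 without lithium replicate 5, and 50 in WT males without lithium replicate 4. The HT male count stayed between 1583 and 2492 over 10 such removals, and the averaged count stayed between 3697 and 4267 over 40 such removals. With sequencing depth as a covariate the average gave 2466 calls, of which 2265 were among the 4021, and without the HT male arm it gave 2153.

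Agreement was then read gene by gene. Of the 4021 called genes, 3279 (81.5%) had the same sign in all 4 arms, against 5429 (30.5%) of all genes tested; since the call uses the mean of those arms, the first share is a description. Being called in the same direction in separate arms was rare: 307 genes in at least 2 arms (1.72%), 54 in at least 3 (0.303%) and 8 in all 4 (0.0449%). The differences of 2 arms, compared across the 17804 genes, correlated with Pearson's r between -0.078 and 0.36 and Spearman's rho between 0.088 and 0.39, with a mean r of 0.20 over the 6 pairs. The pair most alike was HT female and WT male (r = 0.36, rho = 0.39), and the pair least alike was WT female and WT male (r = -0.078, rho = 0.088). Genes are not independent replicates, and the 2 arms of a pair share the platform and normalization but no library. WT females and WT males had opposite differences in olfactory bulb markers, with list medians of 1.30 and -1.80. With striatal and olfactory bulb marker scores as covariates their r was 0.20.

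Each arm was also looked up for the genes called in the mean of the other 3 arms. The difference that was called and the one that was read come from separate libraries. The spread behind each call, and the filter on level, used all 60 libraries, those of the left-out arm included. The mean of 3 arms called 3253 genes without HT females (18.3%), and 87.8% of them had the same sign in HT females, against 66.3% of all genes. For HT males the share was 92.7% of 2153 genes (12.1% called), against 66.1% of all genes. It was 80.5% of 3598 genes (20.2% called) in WT females, against 62.6%, and 82.5% of 3469 genes (19.5% called) in WT males, against 62.7%. The median size along the called direction was 0.127 in HT females, where the other 3 arms had 0.190, and 0.199 in HT males, where the others had 0.186. It was 0.103 in WT females, where the others had 0.200, and 0.109 in WT males, where the others had 0.193. The bars of same-sign shares in the agreement plot show that every arm followed the other 3 above the share for all genes.

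**Figure D1:**
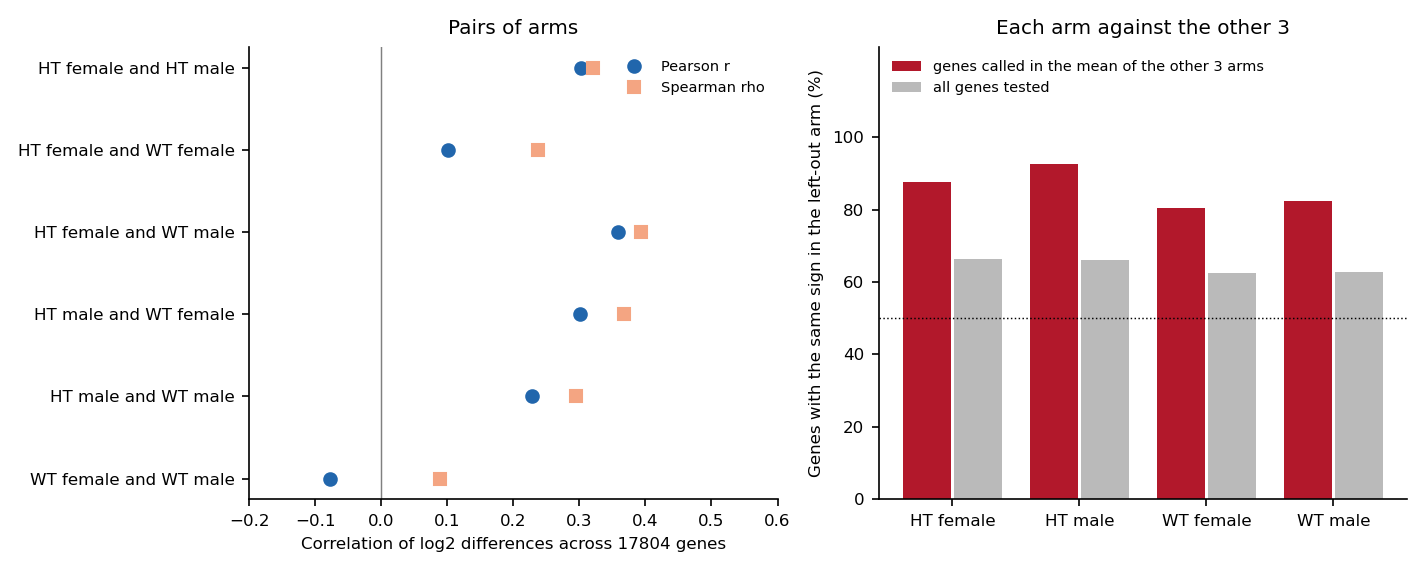
Left, the correlation across 17804 genes of the lithium minus vehicle log2 differences of each pair of arms (circles, Pearson; squares, Spearman); right, the percentage of genes with the same sign in an arm as in the mean of the other 3 arms, for genes called there (red) and all genes (grey), with a dotted line at 50%. The other 5 pairs sit above WT female with WT male, which is at -0.078 by Pearson, while the red bars reach 80.5% to 92.7%.

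Split by genotype, lithium called 2595 genes in HT (14.6%) and 814 in WT (4.57%). Of the HT calls, 95.0% had the same sign in WT (71.2% of all genes did), and of the WT calls 98.8% had the same sign in HT. The 535 genes called in both were 20.6% of the HT calls and 65.7% of the WT calls, and none was called in opposite directions. Across all genes the HT and WT differences correlated with r = 0.46 and rho = 0.53. The median size of the HT calls was 0.239 in HT and 0.128 in WT. Split by sex, females gave 1117 calls (6.27%), 94.5% with the same sign in males, and males gave 2820 (15.8%), 90.5% with the same sign in females; here 65.8% of all genes had the same sign, and the correlation was r = 0.38 and rho = 0.42.

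**Figure D2:**
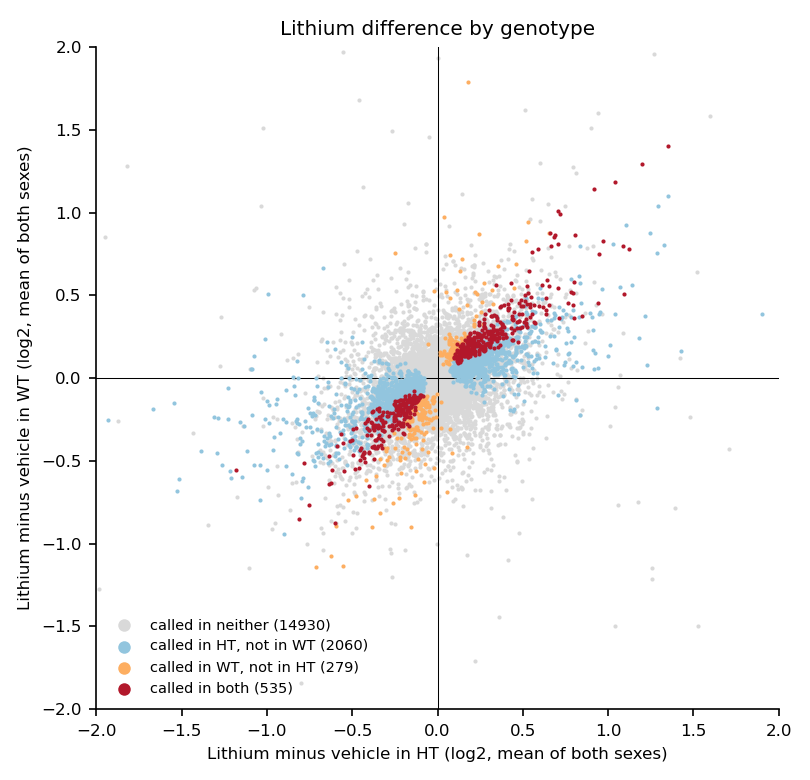
Each point is 1 gene, with its lithium minus vehicle log2 difference in HT on the x axis and in WT on the y axis, each the mean of both sexes; 13 genes lie outside the plotted range. The 535 genes called in both genotypes (red) lie in the lower left and upper right quadrants, and the 2060 called in HT and not in WT (blue) spread along the x axis.

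The 8 genes called in each of the 4 arms were Ctnnb1, Gnb4, Pcyt1b, Meaf6, Pnck, Chd3 and Pelp1, all lower with lithium, and Ifrd1, which was higher. Ctnnb1 encodes beta-catenin, the protein that glycogen synthase kinase 3 marks for breakdown. Per-library values here and below are normalized counts in the order of the replicate numbers. Ctnnb1 had 13999.9, 15032, 15544, 14229 and 14183 in HT female lithium libraries, against 16827, 17519.9, 16484, 16282 and 17519.8 in HT female vehicle libraries. It had 14319, 14797, 14402, 14672 and 15331 in HT male lithium libraries, against 17059.8, 17736, 18044, 15455 and 16420.3 in HT male vehicle libraries. It had 14753, 14779, 15248, 14935 and 15832 in WT female lithium libraries, against 16974, 17884, 16526, 16699 and 17504 in WT female vehicle libraries, and 14935, 13535, 15162, 14168 and 14639 in WT male lithium libraries, against 16583, 17651, 16118, 17311 and 17112 in WT male vehicle libraries. The lithium and vehicle libraries did not overlap in any arm, and the difference was alike in all arms: -0.21, -0.20, -0.18 and -0.23 in HT females, HT males, WT females and WT males. Averaged, Ctnnb1 fell (log2 difference -0.21 ± 0.019 (SE), adjusted p = 6.63e-11). The test for differing arms gave it adjusted p = 0.927.

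Gnb4, a beta subunit of heterotrimeric G proteins, had 1229, 1299, 1127, 1194 and 1341 in HT male lithium libraries, against 1742, 1818, 1875, 1861 and 1906 in HT male vehicle libraries. It had 1253, 1274, 1376, 1174 and 1291 in HT female lithium libraries, against 1797, 1655, 1399.8, 1414 and 1495 in HT female vehicle libraries. The groups did not overlap in either HT arm. In WT libraries Gnb4 had 1292, 1255, 1241, 1335 and 1491 in WT female lithium libraries, against 1527, 1646, 1415, 1712 and 1711 in WT female vehicle libraries, and 1583, 1290.4, 1388, 1288 and 1430.1 in WT male lithium libraries, against 1519, 1821, 1846, 1609 and 1576 in WT male vehicle libraries, with 1 lithium library above the lowest vehicle library in each. Its arm differences were -0.28, -0.57, -0.28 and -0.26 in HT females, HT males, WT females and WT males, and averaged -0.35 ± 0.033 (adjusted p = 8.54e-11); the test for differing arms did not pass (adjusted p = 0.332). Ifrd1, a transcriptional co-regulator, had 969, 1055, 994, 1097 and 964 in WT female lithium libraries, against 833, 811, 929, 697 and 752 in WT female vehicle libraries, and 908, 1023, 1151, 1060.2 and 914 in WT male lithium libraries, against 793, 853, 803, 745 and 859 in WT male vehicle libraries, without overlap in either. In HT libraries the groups touched: 1107, 1291, 1278, 944 and 961 in HT female lithium libraries, against 880.4, 947, 923, 828 and 708 in HT female vehicle libraries, and 973, 1005, 1186, 907 and 1174 in HT male lithium libraries, against 801, 773, 914, 716 and 811 in HT male vehicle libraries. Ifrd1 rose by 0.35 ± 0.044 on average (adjusted p = 5.13e-08).

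Among the other 5, Pcyt1b, which makes an activated choline for membrane phosphatidylcholine, had 1587 to 1913 normalized counts (median 1741) in lithium libraries and 1833 to 2128 (median 1983) in vehicle libraries, and fell (log2 difference -0.20 ± 0.021 (SE), adjusted p = 1.61e-09). Meaf6, a subunit of histone acetyltransferase complexes, had 2282 to 2768 normalized counts (median 2500.4) in lithium libraries and 2626 to 3189 (median 2847) in vehicle libraries, and fell (log2 difference -0.20 ± 0.021 (SE), adjusted p = 1.85e-09). Chd3, a chromatin remodeller of the NuRD complex, had 20363 to 24745 normalized counts (median 22431) in lithium libraries and 23079.7 to 28404 (median 25196) in vehicle libraries, and fell (log2 difference -0.18 ± 0.022 (SE), adjusted p = 2.34e-08). Meaf6 and Chd3 showed no overlap in any arm, although their ranges over all 20 libraries of a treatment meet. Pnck, a calmodulin-dependent protein kinase, had 965 to 1338 normalized counts (median 1145) in lithium libraries and 1164 to 1649 (median 1472) in vehicle libraries, and fell (log2 difference -0.37 ± 0.041 (SE), adjusted p = 3.82e-09). Pelp1, a co-regulator of nuclear receptors, had 667 to 871 normalized counts (median 764) in lithium libraries and 823 to 996 (median 889.6) in vehicle libraries, and fell (log2 difference -0.25 ± 0.032 (SE), adjusted p = 9.73e-08). All 20 lithium libraries lay on the called side of their arm's vehicle mean for each of the 8 genes. The 8 averaged calls held without any 1 library, but calls in single arms were often near the threshold. In WT females each of the 8 lost its call in 2 to 8 of 10 such removals, and Ctnnb1 did so in 4. There the removal that raised the p most was that of lithium replicate 2 or vehicle replicate 1. Of the 8, 6 lost the call in at least 1 removal in HT females, 6 in WT males and 2 in HT males. Ctnnb1 and Pnck kept it in these arms. With depth as a covariate all 8 lost their call in WT females and 4 did in HT females, while all 8 kept it in both male arms.

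**Figure D3:**
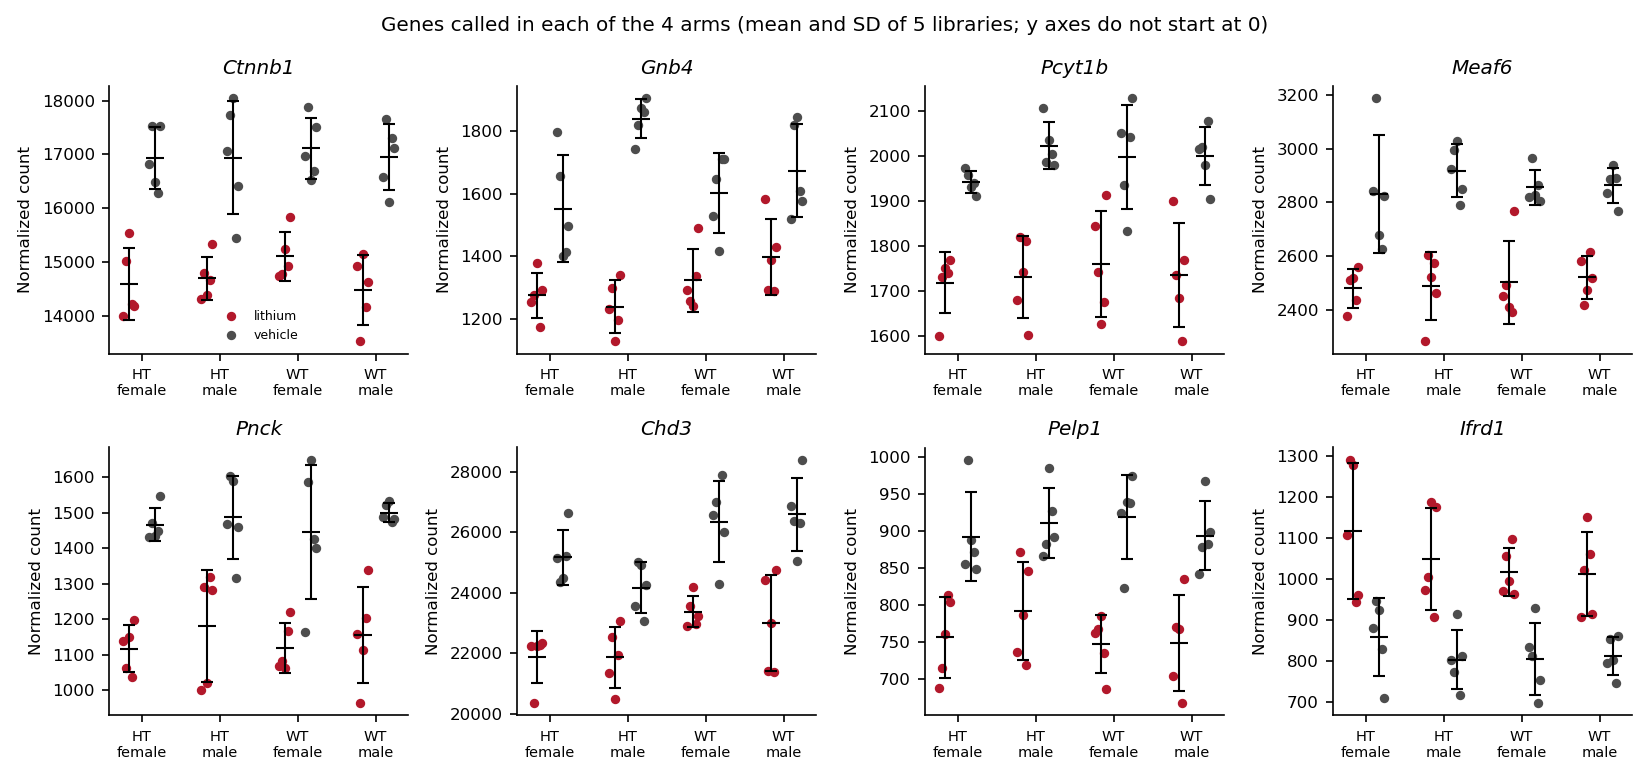
Normalized counts of the 8 genes called in each arm, 1 point per library (red, lithium; grey, vehicle) with the mean and SD of 5 libraries; the y axes do not start at 0. Ctnnb1, Meaf6 and Chd3 have every lithium point below every vehicle point within each arm, and Ifrd1 has higher lithium means in all 4 arms.

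In 11 genes the lithium and vehicle libraries did not overlap in any arm (0.0618% of genes tested). Ctnnb1, Meaf6 and Chd3 were the ones that fell, and 8 rose: Plekhg4, Sh2d4b, Fkbp5, Tbc1d4, Mapk4, Wipf3, Ppm1h and Znrf1. Plekhg4, which belongs to a family of GTPase activators, showed the largest called rise among the named genes. It had 144, 170.2, 137, 121 and 106 in HT female lithium libraries, against 81.0, 50.7, 83.2, 68.2 and 80.0 in HT female vehicle libraries. It had 189, 159.9, 119.97, 119 and 152 in HT male lithium libraries, against 42.8, 46.5, 90.5, 65.9 and 62.3 in HT male vehicle libraries. It had 133, 140.3, 107, 109 and 101 in WT female lithium libraries, against 74.2, 99.8, 93.0, 63.5 and 62.2 in WT female vehicle libraries, and 109, 141, 159.9, 158 and 157 in WT male lithium libraries, against 69.0, 85.0, 54.3, 65.5 and 87.2 in WT male vehicle libraries. The lowest lithium library stood above the highest vehicle library of its arm each time, by the smallest margin in WT females. Plekhg4 rose 1.93-fold (log2 difference 0.94 ± 0.085 (SE), adjusted p = 2.71e-11). Sh2d4b, an adaptor protein, rose by 0.95 ± 0.11 (adjusted p = 3.90e-09), although its mean of 45.0 normalized counts was under the level set for naming genes. Tbc1d4, a Rab regulator that insulin signalling acts on, rose by 0.47 ± 0.064 (adjusted p = 2.79e-07). Mapk4, an atypical MAP kinase, rose by 0.32 ± 0.031 (adjusted p = 1.34e-10), and the ubiquitin ligase Znrf1 by 0.18 ± 0.021 (adjusted p = 2.08e-08). Wipf3, which binds a regulator of actin, and Ppm1h, a protein phosphatase, rose by 0.32 ± 0.038 and 0.27 ± 0.036 (adjusted p = 2.82e-08 and 2.39e-07). These genes beyond Plekhg4 and Fkbp5 were picked out after their values were seen.

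The genes that lithium acts on, and those that recycle inositol, changed little as a group. Of 15 measured, 3 rose and 2 fell (33.3%, where 22.6% of all genes were called; median 0.014, where all genes had -0.0018). Impa1, the main inositol monophosphatase, had 2232, 2050.0, 2175, 1961 and 2115 in WT female lithium libraries, against 1582, 1978, 1755, 1783 and 1871 in WT female vehicle libraries, with 1 lithium library below the highest vehicle library. In the other arms it had 1975, 2359, 2076, 2002 and 1763 in HT female lithium libraries, against 1869.7, 1977, 1835, 1673 and 1716 in HT female vehicle libraries, and 2117, 1998, 2146, 2015 and 1851 in HT male lithium libraries, against 1941, 1968, 1796, 1743 and 1691 in HT male vehicle libraries. It had 2047, 2155, 1953, 2169.8 and 1966 in WT male lithium libraries, against 1704, 1989.5, 2008, 1766 and 1862 in WT male vehicle libraries. The groups overlapped in every arm, but 19 of 20 lithium libraries lay above their arm's vehicle mean and the 4 differences were alike (0.16, 0.15, 0.23 and 0.14 in HT females, HT males, WT females and WT males), and Impa1 rose (log2 difference 0.17 ± 0.033 (SE), adjusted p = 9.62e-05). Slc5a3, the sodium-coupled inositol carrier, had 695 to 1342 normalized counts (median 893) in lithium libraries and 561 to 850.4 (median 697) in vehicle libraries, and rose (log2 difference 0.34 ± 0.062 (SE), adjusted p = 4.59e-05). Isyna1, which makes inositol from glucose phosphate, rose by 0.18 ± 0.057 (adjusted p = 0.0165). Impa2, the second monophosphatase, had 113 to 161 normalized counts (median 141) in lithium libraries and 123 to 233 (median 163) in vehicle libraries, and fell (log2 difference -0.22 ± 0.060 (SE), adjusted p = 0.00548); Pgm2, a phosphoglucomutase-family gene, fell by 0.19 ± 0.053 (adjusted p = 0.00714) on average. The transcripts of the kinases themselves were not called: Gsk3a differed by -0.0074 ± 0.031 (adjusted p = 0.893) and Gsk3b by -0.045 ± 0.035 (adjusted p = 0.373). Neither were Inpp1 (-0.043 ± 0.034, adjusted p = 0.391) and Bpnt1 (0.035 ± 0.027, adjusted p = 0.364), both lithium-sensitive phosphatases. Impa2 and Pgm2 lost their calls without the HT male arm, and Pgm2 also with depth as a covariate. Trip12 did not pass either (-0.027 ± 0.027, adjusted p = 0.514).

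Of 19 Wnt target and feedback genes 2 rose and 3 fell (26.3%, against 22.6% of all genes; median -0.033). Ccnd1, which encodes cyclin D1, had 1328 to 2194 normalized counts (median 1707) in lithium libraries and 1288 to 1712 (median 1531) in vehicle libraries, and rose by 0.20 ± 0.046 (adjusted p = 0.00110). Lef1, a transcription factor that partners beta-catenin, had 77.1 to 221 normalized counts (median 132) in lithium libraries and 128 to 251 (median 179) in vehicle libraries, and fell by 0.41 ± 0.092 (adjusted p = 7.07e-04). The secreted Wnt binder Sfrp1 fell by 0.23 ± 0.049 (adjusted p = 4.18e-04). Notum, a secreted enzyme that inactivates Wnt, differed by 0.20 ± 0.074 (adjusted p = 0.0426), a call that 19 of 40 single-library removals ended. Axin2, the standard feedback target, differed by -0.033 ± 0.031 (adjusted p = 0.472).

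Of 19 clock genes 2 rose and 2 fell in the average (21.1%, against 22.6% of all genes). Per2, a repressor of the clock loop, had 1942, 1991, 1947, 1880.2 and 1752 in HT male lithium libraries, against 1212, 1101, 1501, 1063 and 1403 in HT male vehicle libraries, and 1714, 1894, 1769, 2079 and 1634 in WT male lithium libraries, against 1164, 1233, 1154, 1099.8 and 1082 in WT male vehicle libraries, without overlap in either male arm. In females it had 2079, 2276, 1819, 1898 and 1322 in HT female lithium libraries, against 1470.5, 1346, 1299.6, 1557 and 1600.2 in HT female vehicle libraries, and 1801, 1495, 1486, 1438 and 1784 in WT female lithium libraries, against 1545, 1711, 1533, 1238 and 1362 in WT female vehicle libraries, with overlap. Per2 averaged a rise of 0.43 ± 0.050 (adjusted p = 9.19e-09). Cry1, its partner repressor, rose by 0.29 ± 0.048 (adjusted p = 8.04e-06), while Nr1d1, which encodes REV-ERB alpha, fell by 0.29 ± 0.055 (adjusted p = 9.82e-05). Rorb, an orphan receptor also marking layer 4 neurons, fell by 0.20 ± 0.046 (adjusted p = 0.00123). The hour of tissue collection is not in the labels.

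Genes that glucocorticoids induce had the largest median rise of the lists examined: 15 of 19 rose and none fell (78.9%, against 22.6% of all genes, with a median of 0.33). The list medians were positive in all 4 arms. Fkbp5, a co-chaperone that binds the glucocorticoid receptor, had 1276, 1237, 1336, 1557 and 1462 in HT female lithium libraries, against 792, 1118, 828, 805 and 1040.5 in HT female vehicle libraries. It had 1375, 1233, 1384, 1554 and 1696 in HT male lithium libraries, against 876, 905, 1185, 627 and 857 in HT male vehicle libraries. It had 1485, 1347, 1637, 1795 and 1490.5 in WT female lithium libraries, against 766, 1019.9, 1051, 697 and 716 in WT female vehicle libraries, and 1424, 1315, 1542, 1736 and 1626 in WT male lithium libraries, against 823, 1022, 619, 813 and 954 in WT male vehicle libraries. No vehicle library of an arm reached its lithium libraries, and Fkbp5 rose 1.70-fold (log2 difference 0.77 ± 0.085 (SE), adjusted p = 3.90e-09). Hif3a, a hypoxia-factor family member, had 295 to 519 normalized counts (median 437) in lithium libraries and 101 to 445 (median 278) in vehicle libraries, and rose (log2 difference 0.76 ± 0.12 (SE), adjusted p = 7.86e-06). Map3k6, a stress-kinase activator, had 117 to 192 normalized counts (median 149) in lithium libraries and 61.0 to 172 (median 80.1) in vehicle libraries, and rose (log2 difference 0.73 ± 0.092 (SE), adjusted p = 5.58e-08). Sult1a1, a sulfotransferase, rose by 0.77 ± 0.12, the transcription factor Zbtb16 by 0.52 ± 0.065, and Tsc22d3, which encodes the glucocorticoid-induced leucine zipper, by 0.41 ± 0.060 (adjusted p = 2.26e-06, 5.58e-08 and 8.72e-07). Per1, Ddit4, Pdk4 and Errfi1 were not called. Without the HT male arm 9 of the 19 rose, and with depth as a covariate 11. Dio2, an activator of thyroid hormone that stands on another list, rose by 0.41 ± 0.063 (adjusted p = 2.26e-06). That list of thyroid-regulated genes had 4 of 16 higher and 4 lower (50%, against 22.6% of all genes).

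Genes of the unfolded protein response of the endoplasmic reticulum rose together: 18 of 21 were higher and none lower (85.7%, against 22.6% of all genes, with a median of 0.18). The count was 17 without the WT male arm, 16 without the HT female arm and 18 without either of the other 2 arms. It was also 18 with depth as a covariate and in each of the 40 removals of 1 library. Of the 18 list members with a RefSeq promoter, 8 held an exact ER stress element (CCAAT, then CCACG after 9 free bases, on either strand) in the 250 bases before the start site (44.4%), against 19 of 12634 tested genes (0.150%). The element is bound by the stress factor ATF6 together with NF-Y. Of these 8, 7 rose (Hspa5, Creld2, Dnajc3, Pdia6, Syvn1, Calr and Hsp90b1) and Canx was not called (0.030 ± 0.024, adjusted p = 0.395). Among the other 11 genes with the element, Hnrnpa3 was called (0.092 ± 0.030, adjusted p = 0.0216). Among called genes with a promoter, 8 of 1512 higher ones (0.529%) and 0 of 1487 lower ones held it, counts too small to compare. The list gathers known genes of this response, so its share with the element describes the list and tests nothing. The upstream sequences of 4 of the risen members are given below because they carry this element, shown in capitals and read 5′ to 3′ along the gene's strand (RefSeq, GRCm38.p6). The search window ends at the base before the start site.
Hspa5 (chr2:34771840-34772089, + strand): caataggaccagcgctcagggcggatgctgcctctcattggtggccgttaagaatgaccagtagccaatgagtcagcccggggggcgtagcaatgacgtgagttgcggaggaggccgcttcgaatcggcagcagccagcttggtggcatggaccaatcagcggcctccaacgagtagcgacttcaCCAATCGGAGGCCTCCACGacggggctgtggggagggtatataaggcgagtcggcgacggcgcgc
Calr (chr8:84846932-84847181, - strand): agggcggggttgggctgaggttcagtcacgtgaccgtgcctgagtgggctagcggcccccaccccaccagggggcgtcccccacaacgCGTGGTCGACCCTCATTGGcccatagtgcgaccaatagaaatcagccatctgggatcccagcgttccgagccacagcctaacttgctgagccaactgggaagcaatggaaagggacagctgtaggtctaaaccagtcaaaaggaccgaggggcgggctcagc
Pdia6 (chr12:17266339-17266588, + strand): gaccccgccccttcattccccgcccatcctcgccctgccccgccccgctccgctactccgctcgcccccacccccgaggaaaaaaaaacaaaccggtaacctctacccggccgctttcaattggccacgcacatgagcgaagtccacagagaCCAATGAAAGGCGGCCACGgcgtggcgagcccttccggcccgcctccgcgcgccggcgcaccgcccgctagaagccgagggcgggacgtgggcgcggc
Creld2 (chr15:88819396-88819645, + strand): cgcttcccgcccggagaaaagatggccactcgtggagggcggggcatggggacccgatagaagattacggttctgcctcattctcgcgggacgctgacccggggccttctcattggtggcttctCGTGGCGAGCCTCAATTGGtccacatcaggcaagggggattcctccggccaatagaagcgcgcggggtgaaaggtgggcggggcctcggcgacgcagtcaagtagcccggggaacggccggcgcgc

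Hspa5 encodes BiP, the main chaperone of the endoplasmic reticulum. It had 9027, 12776, 10249, 9704 and 7507 in HT female lithium libraries, against 7471, 6162, 7172, 7615 and 7182 in HT female vehicle libraries. It had 10638, 10926, 10949.7, 8848 and 7480.1 in HT male lithium libraries, against 7675, 6770.2, 7725, 5314 and 6166 in HT male vehicle libraries. It had 9451, 8232, 8891, 9124 and 6784 in WT male lithium libraries, against 6945, 6658, 5724, 6121 and 6985 in WT male vehicle libraries. In each of these 3 arms 1 lithium library lay below the highest vehicle library; WT female groups overlapped more, at 8504, 7545, 7568, 6417 and 11412 in WT female lithium libraries, against 6342, 7064, 7724, 6509 and 6934 in WT female vehicle libraries. Averaged, Hspa5 rose (log2 difference 0.40 ± 0.057 (SE), adjusted p = 5.31e-07). Calr, a lectin chaperone, rose by 0.18 ± 0.034 (adjusted p = 7.38e-05), Pdia6, a disulfide isomerase, by 0.25 ± 0.041 (adjusted p = 8.02e-06), and Creld2, an endoplasmic reticulum stress protein, by 0.33 ± 0.055 (adjusted p = 1.10e-05). Sdf2l1, a partner of BiP, had 270.4 to 589.6 normalized counts (median 410.3) in lithium libraries and 214 to 354 (median 276) in vehicle libraries, and rose most of the list (log2 difference 0.55 ± 0.072 (SE), adjusted p = 1.14e-07). Manf, a secreted stress protein, rose by 0.31 ± 0.041, and Dnajc3, a co-chaperone that also inhibits the kinase PERK, by 0.27 ± 0.040 (adjusted p = 1.32e-07 and 1.11e-06).

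The integrated stress response, which acts through ATF4, had 12 of 23 genes higher and 1 lower (56.5%, against 22.6% of all genes, with a median of 0.17). Atf4 had 3118 to 4720.1 normalized counts (median 3712) in lithium libraries and 2848 to 3228 (median 3026) in vehicle libraries, and rose by 0.30 ± 0.034 (adjusted p = 9.48e-09) with differences of 0.27, 0.39, 0.25 and 0.26 in HT females, HT males, WT females and WT males. Mthfd2, a mitochondrial folate enzyme, rose by 0.42 ± 0.063 (adjusted p = 2.33e-06), and the stress proteins Sesn2 and Ddit3 by 0.30 ± 0.048 and 0.23 ± 0.042 (adjusted p = 4.84e-06 and 5.61e-05). Pycr1, an enzyme of proline synthesis, fell by 0.29 ± 0.073 (adjusted p = 0.00252), and Asns and Trib3 were not called. With depth as a covariate 5 of the 23 rose, and without the HT male arm 7. Of 21 promoters in the list 7 held TGATGNAA, the core of the amino acid response element bound by ATF4, on either strand in the same window (33.3%), against 314 of 12634 tested genes (2.49%). Their genes did not move together: Chac1 rose (0.23), Pycr1 fell (-0.29), and Asns (0.033), Atf3 (0.32), Nupr1 (0.18), Slc7a11 (-0.11) and Vldlr (-0.040) were not called. The upstream sequence of a gene that rose and of one that did not pass are shown, with the core in capitals.
Chac1 (chr2:119350992-119351241, + strand): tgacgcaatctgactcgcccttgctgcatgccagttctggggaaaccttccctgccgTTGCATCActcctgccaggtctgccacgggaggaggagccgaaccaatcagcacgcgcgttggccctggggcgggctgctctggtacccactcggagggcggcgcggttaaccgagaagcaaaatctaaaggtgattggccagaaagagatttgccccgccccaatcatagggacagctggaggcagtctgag
Asns (chr6:7693210-7693459, - strand): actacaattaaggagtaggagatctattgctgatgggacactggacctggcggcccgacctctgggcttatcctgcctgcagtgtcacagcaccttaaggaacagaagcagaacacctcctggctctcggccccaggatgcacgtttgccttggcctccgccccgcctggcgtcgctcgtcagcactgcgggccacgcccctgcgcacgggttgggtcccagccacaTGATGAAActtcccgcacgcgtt

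Of 22 heat shock genes 8 rose and 1 fell (40.9%, against 22.6% of all genes, with a median of 0.050). The list was meant for cytosolic chaperones but also holds Hspd1 and Hspe1, which encode mitochondrial ones. Hspe1 was among the genes that rose (0.15, adjusted p = 0.00680), and Hspd1 was not called. Hspb1, the small heat shock protein HSP27, had 120.5 to 251 normalized counts (median 153) in lithium libraries and 54.6 to 152 (median 104) in vehicle libraries, and rose (log2 difference 0.70 ± 0.098 (SE), adjusted p = 5.29e-07). Hspa1b, an inducible HSP70, rose by 0.65 ± 0.10 (adjusted p = 2.90e-06); its near-identical copy Hspa1a rose by 0.32 ± 0.081 (adjusted p = 0.00237), and reads may have been split between them. The constitutive HSP90 gene Hsp90ab1 fell by 0.11 ± 0.035 (adjusted p = 0.0204). With depth as a covariate 4 of the 22 rose, and without the HT male arm 5. The heat shock element (GAA, TTC and GAA, each 2 bases apart, on either strand) was in 2 of 17 promoters of the list and in 57 of 12634 tested genes (0.451%). The 2 were those of Hspd1 and Hspe1, and no cytosolic member of the list held it. Whether these 2 windows share 1 copy was not tested, and the count is too small to compare.

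Among genes that neuronal activity induces late, 11 of 24 rose and none fell (45.8%, against 22.6% of all genes, with a median of 0.17). Bdnf, a neurotrophin, had 1083, 1274, 1269, 1122 and 1341 in HT male lithium libraries, against 880.0, 954, 946, 756 and 746 in HT male vehicle libraries. It had 1120.2, 1071, 1189.8, 1131 and 1251 in WT female lithium libraries, against 872, 986, 816, 748 and 991 in WT female vehicle libraries, and 1179, 1348, 1403, 1219 and 1157 in WT male lithium libraries, against 841, 982, 959, 939 and 819 in WT male vehicle libraries. In these 3 arms the groups did not overlap. In the remaining arm it had 1271, 1613, 1487, 1104 and 913 in HT female lithium libraries, against 1031, 935, 873, 758 and 859 in HT female vehicle libraries, where 1 lithium library fell below a vehicle library. Bdnf rose 1.38-fold (log2 difference 0.47 ± 0.061 (SE), adjusted p = 9.73e-08), by 0.50, 0.51, 0.39 and 0.47 in HT females, HT males, WT females and WT males. The neuropeptide precursor Vgf rose by 0.49 ± 0.068, the prostaglandin synthase Ptgs2 by 0.39 ± 0.055, and Homer1, a scaffold of glutamate receptors, by 0.49 ± 0.074 (adjusted p = 3.48e-07, 5.22e-07 and 2.55e-06). Of 26 rapid immediate early genes 5 rose and 2 fell (26.9%, against 22.6% of all genes; median 0.071). Ier5 and Klf4 rose by 0.26 ± 0.059 and 0.33 ± 0.090 (adjusted p = 7.53e-04 and 0.00571), Klf10 fell by 0.25 ± 0.077 (adjusted p = 0.0140), and Fos differed by -0.064 ± 0.12 (adjusted p = 0.745). Of 15 neurotrophin-system genes 5 rose, Bdnf and Vgf again among them, and 4 fell (60%, against 22.6% of all genes). Without HT vehicle male replicate 4 alone, the falls dropped from 4 to 1. The neurotrophin receptor gene Ntrk3 rose by 0.15 ± 0.042 (adjusted p = 0.00571).

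Cholesterol synthesis genes were lower: 19 of 26 fell and none rose (73.1%, against 22.6% of all genes, with a median of -0.15). For 20 of the 26 the sign was the same in 4 arms. Insig1, which holds the sterol sensor in the endoplasmic reticulum, had 1429.7 to 1817 normalized counts (median 1603) in lithium libraries and 1674 to 2288 (median 2013) in vehicle libraries, and fell (log2 difference -0.30 ± 0.035 (SE), adjusted p = 9.19e-09). Hmgcs1, an early enzyme of the pathway, had 7529 to 10880.3 normalized counts (median 9004) in lithium libraries and 8809 to 13325 (median 11230.1) in vehicle libraries, and fell (log2 difference -0.29 ± 0.043 (SE), adjusted p = 1.70e-06). Sqle, another enzyme of the pathway, fell by 0.25 ± 0.038, and Stard4, a sterol carrier, by 0.28 ± 0.039 (adjusted p = 2.93e-06 and 5.26e-07). The count of falls was 18 with the 2 regional marker scores as covariates, 20 with depth, 14 without the HT male arm and 12 without the WT female arm. Set directly against fluoxetine, 4 of the 26 were higher and 1 lower with lithium; fluoxetine minus vehicle had Insig1 at -0.34 and Stard4 at -0.38 from the same vehicle libraries.

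**Figure D4:**
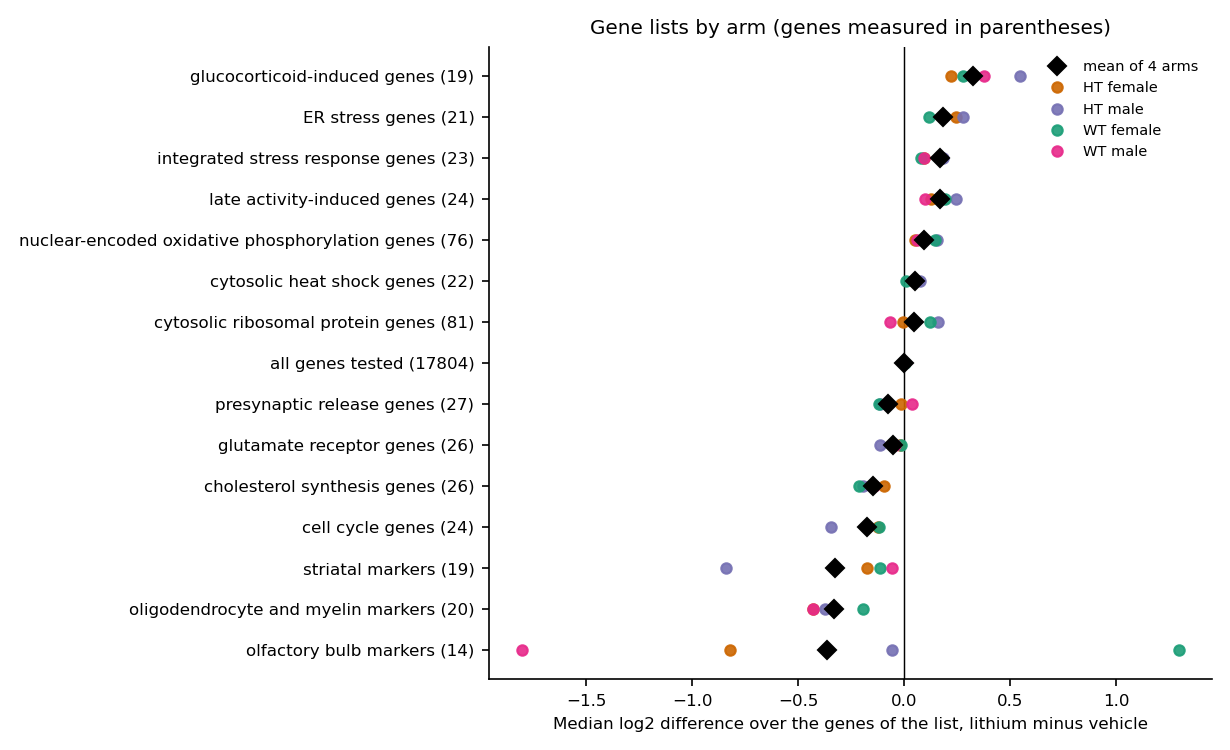
Median lithium minus vehicle log2 difference over the genes of each list, in each arm (coloured circles) and averaged over the 4 arms (black diamonds), with the number of genes measured in parentheses. Glucocorticoid-induced, ER stress and cholesterol synthesis lists keep 1 sign in all 4 arms, whereas olfactory bulb markers run from -1.80 in WT males to 1.30 in WT females.

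Nuclear-encoded genes of oxidative phosphorylation had 32 of 76 higher and none lower (42.1%, against 22.6% of all genes, with a median of 0.092). Ndufb2, a complex I subunit, rose by 0.26 ± 0.043, Cyc1, cytochrome c1 of complex III, by 0.20 ± 0.033, and Cox7a2 of complex IV by 0.21 ± 0.038 (adjusted p = 8.88e-06, 1.45e-05 and 4.53e-05). Cytosolic ribosomal protein genes, whose counts may be shared with pseudogenes, had 15 of 81 higher and 2 lower. That share (21.0%, with a median of 0.048) was no higher than the 22.6% of all genes. Rpl22l1 differed by 0.37, 0.36, 0.63 and -0.21 in HT females, HT males, WT females and WT males, and averaged 0.29 ± 0.065 (adjusted p = 9.10e-04). With depth as a covariate 8 of the 76 and 1 of the 81 rose, and 6 of the 81 fell. Without the HT male arm 15 of the 76 and 1 of the 81 rose, and among the 81, 5 rose without the WT female arm and 24 without the WT male arm. None of the 13 mitochondrially encoded genes was called.

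Presynaptic release genes had 3 of 27 higher and 8 lower (40.7%, against 22.6% of all genes, with a median of -0.074). Rims1, a scaffold of the active zone, had 5844 to 9644 normalized counts (median 8204) in lithium libraries and 8577 to 11547 (median 10262) in vehicle libraries, and fell (log2 difference -0.38 ± 0.051 (SE), adjusted p = 2.28e-07). Its relative Rims2 fell by 0.21 ± 0.029, and the vesicle proteins Vamp1 and Vamp2 by 0.22 ± 0.053 and 0.093 ± 0.023 (adjusted p = 2.69e-07, 0.00159 and 0.0020). Of 26 glutamate receptor genes 1 rose and 5 fell (23.1%, against 22.6% of all genes; median -0.053), among them Grin3a (-0.16 ± 0.030, adjusted p = 5.12e-05), Grik2 (-0.18 ± 0.037, adjusted p = 3.46e-04) and Grin1 (-0.18 ± 0.047, adjusted p = 0.00378), subunits of NMDA and kainate receptors. Postsynaptic density genes had 6 of 30 higher and 5 lower (36.7%, against 22.6% of all genes), with Shank2 higher by 0.15 ± 0.037 and Dlgap1 lower, at -0.11 ± 0.028 (adjusted p = 0.00171 and 0.00204). The small-conductance potassium channel Kcnn2 rose by 0.25 ± 0.029 (adjusted p = 9.19e-09) in a list of 35 channels with 6 higher and 4 lower (28.6%, against 22.6% of all genes). Among interneuron genes, 4 of 20 rose and 1 fell (25.0%, against 22.6% of all genes), and the list median was negative, at -0.023. The called members with the smallest p were among the 4 that rose: Vip at 0.21 ± 0.043, Cck at 0.28 ± 0.060 and Pvalb at 0.30 ± 0.070 (adjusted p = 1.79e-04, 5.21e-04 and 0.00124). They do not stand for the list. Without the HT male arm, 4 presynaptic genes fell and none rose, and 2 postsynaptic density and 2 channel genes rose. In bulk tissue, fewer cells of a type and less RNA per cell cannot be told apart.

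Myelin and oligodendrocyte markers were lower: 14 of 20 fell and none rose (70%, against 22.6% of all genes, with a median of -0.33). Taken by genotype, 9 were called lower in HT and 0 in WT, with medians of -0.40 and -0.28. Gjb1, a myelin gap junction protein, had 36.5 to 174 normalized counts (median 113) in lithium libraries and 69.1 to 268 (median 167) in vehicle libraries, and fell (log2 difference -0.63 ± 0.13 (SE), adjusted p = 4.15e-04). Opalin, a protein of mature oligodendrocytes, fell by 0.56 ± 0.12, Ugt8a, which makes the myelin lipid galactocerebroside, by 0.45 ± 0.090, and the factor Myrf by 0.39 ± 0.098 (adjusted p = 4.25e-04, 1.90e-04 and 0.00258). Summed myelin markers overlapped between the groups in every arm, at 94941 to 141167 normalized counts in HT lithium females, against 126263 to 187465 in HT vehicle females, and 61146 to 152343 in WT lithium males, against 121049 to 196922 in WT vehicle males. With striatal and olfactory bulb scores as covariates 2 of the 20 fell, and 9 did without the HT male or the HT female arm. Of 24 cell cycle genes 8 fell and none rose (33.3%, against 22.6% of all genes, with a median of -0.17). Taken by genotype, 4 were called lower in HT and 0 in WT. Mki67 was at -0.53 ± 0.12 and Top2a at -0.59 ± 0.16 (adjusted p = 0.00130 and 0.00424), but 2 of the 24 fell without the HT male arm and none with the same covariates. Of 15 oligodendrocyte precursor markers 5 fell (33.3%, against 22.6% of all genes), among them Enpp6 (-0.41 ± 0.079, adjusted p = 9.75e-05).

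Of 19 striatal markers 12 fell and none rose (63.2%, against 22.6% of all genes, with a median of -0.33). However, the arm medians were -0.18, -0.84, -0.11 and -0.058 in HT females, HT males, WT females and WT males. Without the HT male arm none was called, and with depth as a covariate 7 fell. Drd2, the D2 dopamine receptor, had 23.9, 51.6, 23.1, 25.0 and 34.0 in HT male lithium libraries, against 31.6, 177, 362, 399 and 334 in HT male vehicle libraries. In WT females it had 37.8, 50.1, 43.3, 24.8 and 33.4 in WT female lithium libraries, against 20.3, 30.9, 24.0, 35.1 and 84.3 in WT female vehicle libraries. Vehicle replicates 2 to 5 of HT males stood above every other lithium or vehicle library, while in WT females the lithium range lay within the vehicle range; the averaged difference was -0.93 ± 0.31 (adjusted p = 0.0240). Adora2a, an adenosine receptor of the same neurons, and Gpr6, an orphan receptor, averaged -0.91 ± 0.23 and -0.87 ± 0.19 (adjusted p = 0.00218 and 6.22e-04). With the 2 regional scores as covariates, which the striatal list itself enters, Drd2 differed by 0.073 and Syndig1l, a synaptic membrane protein, by 0.17. Of 14 olfactory bulb markers none was called.

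Of 20 astrocyte markers 5 rose (25.0%, against 22.6% of all genes), with the gap junction gene Gjb6 at 0.41 ± 0.058 and the growth factor receptor Fgfr3 at 0.29 ± 0.050 (adjusted p = 4.89e-07 and 2.36e-05). Of 19 microglia markers 4 rose (21.1%, no more than the 22.6% of all genes), 3 of them the C1q chains: C1qa (0.18 ± 0.042), C1qb (0.16 ± 0.041) and C1qc (0.15 ± 0.047), with adjusted p = 9.72e-04, 0.00245 and 0.0178. Without the HT male arm 2 of the astrocyte and none of the microglia markers rose. Among 24 endothelial and mural markers 5 rose and 3 fell (33.3%, against 22.6% of all genes). The glucose transporter Slc2a1 rose by 0.45 ± 0.062 and the VEGF receptor Kdr averaged -0.35 ± 0.064 (adjusted p = 2.69e-07 and 6.35e-05), with Kdr at 0.15, -0.41, -0.54 and -0.59 in HT females, HT males, WT females and WT males. Lyve1, a receptor of lymphatic endothelium and border macrophages, had 31.7 to 91.5 normalized counts (median 74.8) in lithium libraries and 17.6 to 76.4 (median 39.3) in vehicle libraries, and rose (log2 difference 0.81 ± 0.14 (SE), adjusted p = 1.37e-05). Cd163, a scavenger receptor of border macrophages, rose by 0.69 ± 0.15 (adjusted p = 3.76e-04). Summed meningeal fibroblast markers spanned 23219 to 30406 normalized counts in HT lithium males, against 18488 to 24296 in HT vehicle males, the ranges of the groups overlapped in all 4 arms, and their part in the Lyve1 and Cd163 differences was not tested.

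Several of the largest changes belonged to no list. Alkal2, a ligand of the receptor kinase ALK, rose by 0.69 ± 0.11, and Etnppl, an astrocyte enzyme that breaks down phosphoethanolamine, by 0.74 ± 0.16 (adjusted p = 5.35e-06 and 5.35e-04). Smim3, a small membrane protein, rose by 0.62 ± 0.079 (adjusted p = 7.38e-08). Ccdc187 fell most among the named genes, with -1.06 ± 0.19 (adjusted p = 3.43e-05). Aplnr, the apelin receptor, Scube3, a secreted protein, and Baiap3, a regulator of vesicle traffic, averaged -0.85 ± 0.21, -0.87 ± 0.16 and -0.72 ± 0.13 (adjusted p = 0.00192, 6.18e-05 and 5.16e-05). Nipal4, of a magnesium transporter family, had 28.2 to 113 normalized counts (median 68.1) in lithium libraries and 57.9 to 181 (median 121) in vehicle libraries, and fell (log2 difference -0.76 ± 0.13 (SE), adjusted p = 9.94e-06) with all 20 lithium libraries below their arm's vehicle mean. Pigz, an enzyme of lipid anchor synthesis, fell by 0.65 ± 0.10 (adjusted p = 3.87e-06). Rpl14-ps1 and Slc35d3 also passed (-0.76 ± 0.29 and -0.63 ± 0.23, adjusted p = 0.0497 and 0.0403), but lost the call in 27 and 18 of 40 single-library removals; the first is a pseudogene whose reads may come from its parent.

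No gene passed the test of whether the 4 arms differ (0% called by limma's moderated F test; 2157 genes, 12.1%, at an unadjusted p under 0.05; 0 by edgeR and 3 by DESeq2). In simulated counts from these libraries, in which 50 genes per size were changed in 1 arm, this test found 24% of 1.2-fold and 88% of 1.5-fold changes. No gene differed by genotype either (0% called by limma; 996 genes, 5.59%, at an unadjusted p under 0.05; 0 by DESeq2 and by edgeR). The smallest p-values belonged to Dph6, Acot5 and Mterf2, whose HT minus WT differences of the lithium response were -0.27, 0.64 and -0.38 (SE 0.065, 0.16 and 0.099; adjusted p = 0.799 for each). Of the 4021 called genes, 607 (15.1%) had an unadjusted p under 0.05 for differing arms.

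By sex, 2 genes passed (0.0112%; 1708, 9.59%, at an unadjusted p under 0.05; 6 by DESeq2 and 2 by edgeR), both lower with lithium in females and higher in males. Edn3, the peptide endothelin 3, had 204, 181, 182, 200.99 and 239.8 in HT female lithium libraries, against 189.9, 257, 239, 271 and 286 in HT female vehicle libraries, and 223, 212, 214, 239 and 190.2 in WT female lithium libraries, against 246, 213, 315, 257 and 178 in WT female vehicle libraries. In males it had 226, 275, 209.7, 259.6 and 262 in HT male lithium libraries, against 202, 121, 151, 221 and 169 in HT male vehicle libraries, and 215, 264, 273, 232 and 227 in WT male lithium libraries, against 180.0, 176, 184, 190.1 and 205 in WT male vehicle libraries. In WT males every lithium library lay above every vehicle library, in HT males 4 of 5 did, and in both female arms the groups overlapped with lower lithium means. The female minus male difference of the response was -0.67 ± 0.13 (SE; adjusted p = 0.0292). Ciart, a repressor of the circadian clock, had 485, 423, 317, 485 and 413 in HT female lithium libraries, against 511, 599, 511, 474 and 602 in HT female vehicle libraries, and 460.2, 373, 394, 446 and 351 in WT female lithium libraries, against 427, 557, 511, 332 and 391 in WT female vehicle libraries. In males it had 426, 420.0, 442, 563 and 489.8 in HT male lithium libraries, against 363, 346, 382, 328 and 479.7 in HT male vehicle libraries, and 504, 532, 536, 560.1 and 578 in WT male lithium libraries, against 422, 287, 356, 376 and 383 in WT male vehicle libraries. Its difference by sex was -0.68 ± 0.13 (adjusted p = 0.0292). Dbp, a clock output factor, had arm differences of -0.48, 0.11, -0.14 and 0.51 in HT females, HT males, WT females and WT males and did not pass (adjusted p by sex 0.0861). Single-library removals ended the call of Edn3 in 17 and of Ciart in 19 of 40 cases, and neither passed with depth as a covariate (adjusted p = 0.191 for both) or with each library's length and GC slopes, the coefficients of its centred log2 values on GC content and on the log2 length of the gene (adjusted p = 0.0915 for Edn3 and 0.112 for Ciart). Depth in both female arms, and the GC slope of the libraries in WT females, did not overlap between the treatments.

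**Figure D5:**
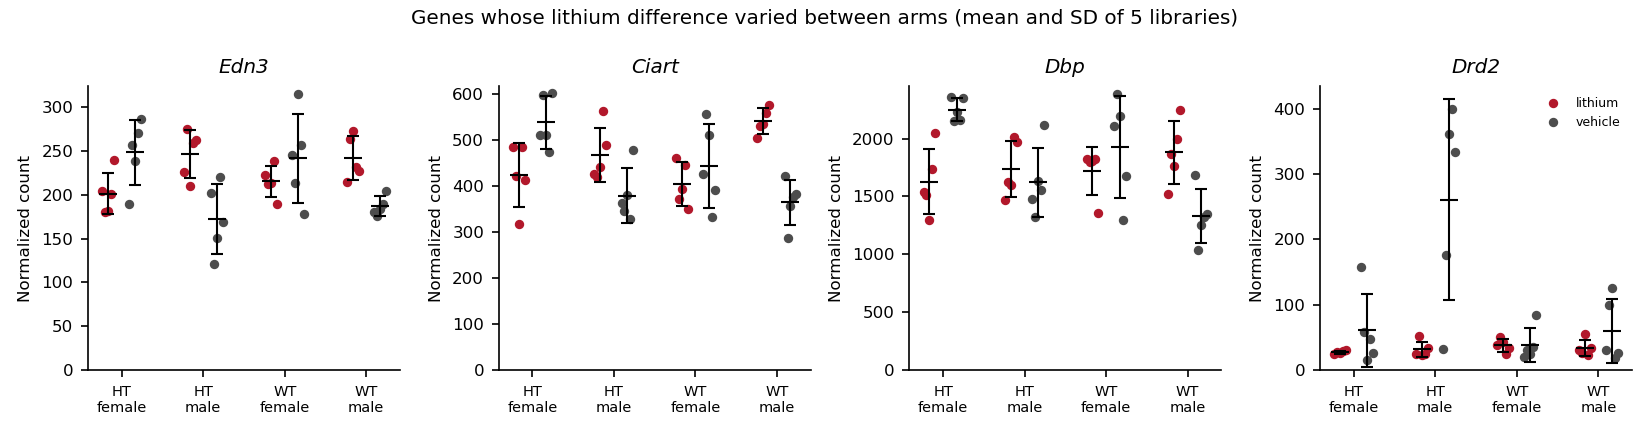
Normalized counts of Edn3, Ciart, Dbp and Drd2, 1 point per library (red, lithium; grey, vehicle) with the mean and SD of 5 libraries in each arm. Edn3 and Ciart have lower lithium means in both female arms and higher ones in both male arms, and Drd2 reaches 399.5 normalized counts in HT vehicle males.

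Set directly against fluoxetine, a contrast that uses no vehicle library, lithium gave 5863 called genes (32.9%), 3008 higher (16.9%) and 2855 lower (16.0%). Ctnnb1 was lower with lithium than with fluoxetine (log2 difference -0.18, adjusted p = 6.21e-10), and so were the other 6 falling genes of the 8 called in every arm. The fluoxetine minus vehicle difference of Ctnnb1 was -0.022; it shares the vehicle libraries with the lithium difference, as do all fluoxetine differences given here. Plekhg4 was higher with lithium by 0.69, Atf4 by 0.38 and Impa1 by 0.20 (adjusted p = 1.75e-08, 1.92e-11 and 3.76e-06). Other leading genes did not pass between the drugs: Map3k6 differed by 0.079, Zbtb16 by -0.058, Homer1 by 0.054 and Insig1 by 0.034 (adjusted p = 0.549, 0.530, 0.617 and 0.487). Their fluoxetine minus vehicle differences were 0.65, 0.58, 0.43 and -0.34. Of 76 oxidative phosphorylation genes 63 were higher with lithium than with fluoxetine and none lower, and of 81 ribosomal protein genes 67 were higher; fluoxetine libraries held 32.7 to 36.6 M reads, against 32.1 to 35.9 M in lithium females and 25.1 to 33.5 M in lithium males. With depth as a covariate the contrast gave 4606 calls. Among the largest differences between the drugs, Atp10b, a lipid flippase, was lower with lithium, at -0.74, and Etnppl higher, at 0.91 (adjusted p = 1.97e-08 and 1.40e-05). Atf3, a stress factor, was higher by 1.12 (adjusted p = 1.87e-04), although its lithium minus vehicle differences had both signs (0.17, 1.31, 0.72 and -0.91 in HT females, HT males, WT females and WT males).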

How the data were processed

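The deposited table holds DESeq2 normalized counts for 18088 genes in 60 libraries, that is, a signal made by the authors from gene-level reads divided by 1 size factor per library. The build GRCm38 and the tools Salmon 0.11.2, DESeq2 1.19.11 and R 3.6.0 are listed per the submitters' processing notes; the strand setting is not given in the sources used here, so a gene and its antisense partner may not be separable. Per the labels' protocols, libraries were made with a stranded TruSeq mRNA kit. Dividing by the smallest step gave whole reads (100% of values whole within 0.01), though in 2 libraries the step was less certain, with size factors from 0.85 to 1.25.

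A gene was tested where 5 or more libraries reached 10 normalized counts (17804 genes; 284 removed). limma-trend 3.58.1 in R 4.3.3 was fitted to log2(normalized count + 1) over all 60 libraries, with 12 group means and 48 residual degrees of freedom. Fold changes are on that scale, which understates those of low genes. A gene counts as called where its p, adjusted by Benjamini-Hochberg, lay under 0.05. The test was checked on simulated counts, with changes in genes of a mean of at least 50 normalized counts. There 88% of 1.2-fold and 100% of 1.5-fold changes present in all arms were found by the averaged test. Depth was compared by exact permutation tests. DESeq2 1.42.0 and edgeR 4.0.16 were run on recovered reads as alternatives. No pairing was used. Marker scores are means of centred log2 values over a list.

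The arms, gene lists and tests were chosen with earlier results of these data known. Genes were named by rule: from the averaged contrast the 12 largest called rises and falls (mean level 50 normalized counts or more), genes called in all 4 arms, up to 4 called members of each list by p, up to 6 by p in each test between arms, up to 5 each way against fluoxetine, and the known lithium targets with Trip12. Genes with only a provisional name were left out, and some genes are not reported here. Further list members named here were chosen after their values were seen. Promoter windows are from RefSeq (GRCm38.p6), matched by symbol for 12634 tested genes.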

Additional observations from a re-analysis of the deposited data

Results flagged for a closer look

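The lithium response of 2 genes differed between the sexes by an interaction test: Ciart by -0.68 and Edn3 by -0.67 (log2, females minus males). Single-library removals ended the call of Edn3 in 17 and of Ciart in 19 of 40 cases, and neither passed with depth or with length and GC slopes as covariates. In 128 groups of 5 libraries examined for 1 library far from the others, 5 had one, where chance gives about 1 in 20. HT lithium male replicate 2 had a striatal marker score of 0.200, and WT vehicle female replicate 5 one of 0.377, each above the other 4 of its group; WT vehicle female replicate 5 also had 84.3 normalized counts of Drd2. HT vehicle male replicate 1 had an olfactory bulb score of 1.55 and a GC slope (the coefficient of centred log2 values on GC content) of -0.165. The averaged contrast without HT vehicle male replicate 1 gave 4267 calls, against 4021 with it.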

How the results depend on the processing

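The averaged count of 4021 calls kept within 1.5 times under TMM or quantile scaling, other filters and pseudocounts, array weights, DESeq2 (4121), edgeR (4015), marker scores (3283), length and GC slopes, and each of 40 single-library removals (3697 to 4267; higher 1861 to 2119, lower 1822 to 2168). It did not with depth as a covariate (2466, of them 1211 higher and 1255 lower), without the HT male arm (2153), or from 1 genotype or sex: 2595 in HT, 814 in WT and 1117 in females.

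Counts in single arms moved more. HT females gave 88 with depth, 516 with length and GC slopes, 430 without 2 libraries that stand apart (replicate 1 of HT vehicle males and replicate 2 of WT fluoxetine males; chosen after seeing the data), and 401 by DESeq2. HT males gave 1435 with marker scores. WT females gave 998 with array weights, 95 from the 40 lithium and vehicle libraries alone, 5 with depth, 347 with slopes, 344 without those 2 libraries and 363 by DESeq2. WT males gave 1103 with array weights, 199 from the 40 libraries, 112 with marker scores, 733 with slopes and 564 without those 2 libraries. Single-library removals gave 31 to 456 in HT females, 1583 to 2492 in HT males, 11 to 322 in WT females and 50 to 447 in WT males. Lithium by sex gave 8 with array weights, 1 from the 40 libraries, 0 with a replicate block, depth or slopes, 1 with marker scores, 6 by DESeq2 and 0 to 5 over removals. Arms differing gave 1 from the 40 libraries, 3 by DESeq2 and 0 to 2 over removals; by genotype stayed at 0. Over removals lithium against fluoxetine gave 5516 to 6432, the mean same-sign share 83.5% to 87.2% and the mean pair correlation 0.17 to 0.23; with depth these were 4606, 89.6% and 0.24, with array weights 7100, 82.1% and 0.16. Same-numbered replicates did not vary together (correlations of -0.37 to 0.51, 6 of 20 over 0.1); the replicate block left the average at 4039 and, apart from lithium by sex, moved no count by over 1.5 times. The causes were not tested.

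Some small or regional averages changed sign. With marker scores Drd2 was 0.073, Syndig1l 0.17, Slc35d3 0.12 and Eif4a-ps4 0.041. Without the HT male arm Edn3 was -0.023, Msn -0.0041, Atf3 -0.0067, Trip12 0.0047 and Gsk3b 0.0063. Without the HT female arm Dbp was 0.16, mt-Atp8 -0.022 and Sorcs3 -0.039. Without the WT female arm Dbp was 0.044, Sorcs3 -0.034, Arap3 0.016 and Gsk3a 0.035; without the WT male arm Ciart was -0.055 and Arap3 0.042. Trip12 was 0.0087 with depth, and Gsk3a 0.00032 without WT vehicle female replicate 5.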

Other observations

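Lysosome and autophagy genes had 8 of 30 higher and 5 lower with lithium (43.3% called, against 22.6% of all genes, with a median of 0.042). Neu1, a sialidase of the lysosome, rose by 0.16 ± 0.025 (adjusted p = 3.12e-06), with every lithium library above its arm's vehicle mean. The autophagy genes Wipi1 and Gabarapl1 fell by 0.14 ± 0.030 and 0.11 ± 0.025 (adjusted p = 4.14e-04 and 0.00129). Of 15 Hedgehog pathway genes 5 fell and none rose (33.3%, against 22.6% of all genes, with a median of -0.14). Taken by genotype, 4 were called lower in HT and 0 in WT. Gli1, the pathway's transcriptional effector, differed by -0.62, -0.47, -0.15 and -0.58 in HT females, HT males, WT females and WT males, averaging -0.46 ± 0.098 (adjusted p = 4.73e-04). Its fluoxetine minus vehicle difference, from the same vehicle libraries, was -0.59.

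Of 23 cAMP signalling genes 2 rose and 5 fell (30.4%, against 22.6% of all genes). The phosphodiesterase gene Pde4a rose by 0.15 ± 0.027, whereas Pde8b, Pde1b and Pde4b fell by 0.19 ± 0.045, 0.21 ± 0.054 and 0.11 ± 0.027 (adjusted p = 2.12e-05, 0.00112, 0.00317 and 0.00153); Pde1b is also strong in striatum. Of 28 interferon-induced genes 1 was called (3.57%, against 22.6% of all genes), B2m, the light chain of MHC class I, at 0.23 ± 0.047 (adjusted p = 2.11e-04). The neuronal non-coding RNA Bc1 had arm differences of 1.71, 0.17, 0.57 and -0.45 in the same order, a lithium average of 0.50 ± 0.15 (adjusted p = 0.0140) and a fluoxetine minus vehicle difference of 1.16; its reads may be shared with related repeats. Proteasome subunits showed little, with 1 of 31 higher and 2 lower (9.68%, against 22.6% of all genes). The chloride importer Slc12a2 fell by 0.15 ± 0.037 (adjusted p = 0.00275). Of 10 measured genes among Trip12 and its partners 3 fell (30%, against 22.6% of all genes): Huwe1 (-0.11 ± 0.032), Arid1a (-0.12 ± 0.037) and Rnf168 (-0.11 ± 0.035), with adjusted p = 0.0108, 0.0143 and 0.0173.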
